A study of Homo sapiens with 21 samples.

Results

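The experiment described here asked whether the transcriptional effects of knocking down CDK4 and CDK6 in senescent fibroblasts added up when both kinases were knocked down together. It rests on 15 of the 21 libraries of the series, in 5 of its 7 groups of 3 libraries. The cells were of the IMR90 line, fibroblasts established from human lung, made senescent by ionising radiation. The libraries were 3 with the non-targeting siRNA NT#3, 3 with the non-targeting siRNA NT#4, 3 with siRNA against CDK4, 3 with siRNA against CDK6 and 3 with both siRNAs, called the dual knockdown below. The cells of all 15 libraries were irradiated, were transfected with 5 nM siRNA through DharmaFECT on days 4 and 7 after irradiation, and were harvested on day 10 for poly(A) RNA sequencing. The labels name 1 siRNA product per target and do not say whether the dual knockdown received 5 nM in all or of each siRNA, so the amount of siRNA and the pair of targets cannot be told apart.

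CDK4 and CDK6 are closely related kinases that are activated by D-type cyclins and phosphorylate the retinoblastoma protein RB and its relatives p107 and p130. Phosphorylation releases E2F factors, which switch on genes for DNA replication, and takes apart the DREAM repressor complex, so that the B-Myb and FOXM1 programme for mitosis can run. In senescent cells the inhibitors p16 and p21 restrain these kinases, and most cells no longer divide. The same cells secrete the inflammatory factors known as the senescence-associated secretory phenotype (SASP).

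For each gene the departure was the level in the dual knockdown minus the level that the single knockdowns added up to, on the scale log2(normalised read count + 1). This equals the change that CDK4 siRNA caused on top of CDK6 siRNA minus the change that it caused alone, and a departure of 0 means that the fold changes multiplied. The expected level of the dual knockdown is the control level times both fold changes. In the table, 11501 of 16383 genes reached a normalised count of 10 in at least 3 of the 15 libraries and were tested with limma, with Benjamini-Hochberg adjustment over all of them and a threshold of 0.05. The labels do not say that replicates came from separate cultures, so p-values measure the spread between these libraries, which may be technical.

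The 15 libraries held 12892442 to 21822152 reads assigned to genes. Library 3 of NT#3, the shallowest, stood apart: its chi-square per degree of freedom against the other NT#3 libraries was 38.1 and 59.5, against 3.27 to 7.70 for all other replicate pairs. No replicate pair agreed within sampling noise. The fibroblast markers matched the labelled cell type: 11 of 11 passed the filter on low values. Their summed level was 453456 to 564136 normalised counts in the controls and 683551 to 868681 in the dual knockdown. Most of that sum came from COL1A1 and COL1A2, at mean normalised counts of 257123 and 196218, and no fibroblast marker departed from the sum of single effects. Of 11 epithelial, 8 endothelial and 9 immune markers, 5, 4 and 3 passed, with NKX2-1, CDH5 and PTPRC at mean normalised counts of 0.0621, 0.532 and 3.29. The highest of each list were KRT18, TEK and CD68 at 1303, 3127 and 1154, and KRT8 and KRT19 stood at 316 and 365. The endothelial and immune sums below therefore rest almost wholly on TEK and CD68. The smooth muscle and pericyte markers, of which 7 of 8 passed, summed to 7719 to 10324 in the controls, 16687 to 17082 in the CDK6 knockdown and 11726 to 12573 in the dual knockdown. The highest of them was ACTG2 at a mean of 4901, and MYH11 stood at 0.53. The endothelial markers summed to 2064 to 3735 in the controls, 4100.3 to 4517 in the CDK6 knockdown and 3444 to 3700 in the dual knockdown. The immune markers summed to 903 to 1460.1 in the controls, 1520.3 to 1624 in the CDK4 knockdown, 1068 to 1141 in the CDK6 knockdown and 940.0 to 1014 in the dual knockdown, and CD68, a lysosomal protein of macrophages, lay below the sum (departure -0.67, SE 0.09, adjusted p = 2.46e-04). The part of these cell types in the results was not tested.

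The siRNAs lowered their targets. CDK4 (ENSG00000135446) stood at 1158, 1166 and 1334 normalised counts with NT#3 and at 1356, 1249.6 and 1223 with NT#4. It stood at 108.9, 105.6 and 109.9 with CDK4 siRNA, at 1015, 946 and 889 with CDK6 siRNA, and at 123, 115 and 115 in the dual knockdown. The CDK4 transcript therefore fell by 3.51 log2 units with CDK4 siRNA alone and fell by 3.40 in the dual knockdown. It also fell by 0.39 with CDK6 siRNA alone (SE 0.07, adjusted p = 3.4e-04). The sum of both was 82.1 normalised counts, and the dual knockdown lay above it (departure 0.51, SE 0.11, adjusted p = 0.0119). Without library 3 of the CDK6 knockdown, and on a linear scale, that call was lost.

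CDK6 (ENSG00000105810) stood at 4147 to 5689 in the 6 control libraries. It was 6324, 6397 and 5163 with CDK4 siRNA, 834, 727 and 759.7 with CDK6 siRNA, and 930.4, 975 and 998 in the dual knockdown. The CDK6 transcript rose by 0.35 with CDK4 siRNA alone (SE 0.09, adjusted p = 0.0189), and its departure was -0.02 (95% interval -0.31 to 0.27, adjusted p = 0.959). Among the cyclins that activate both kinases, the departures were -0.31 for CCND1 (95% interval -0.60 to -0.03, adjusted p = 0.229), 0.29 for CCND2 (0.10 to 0.47, adjusted p = 0.0867) and -0.06 for CCND3 (-0.25 to 0.14, adjusted p = 0.785). CCND1 passed with NT#3 alone as control or without library 3 of NT#3, and CCND2 with NT#4 alone or without library 2 or 3 of NT#3.

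Across the transcriptome, 394 genes (3.43%) departed from the sum, 254 (2.21%) below it and 140 (1.22%) above it. Large departures were mostly downward: 0.939% of the tested genes lay below by more than 1 log2 unit, and 0.0261%, or 3 genes, lay above by as much. Among those far below, 38 belonged to a list of 62 mitosis genes, and 54 belonged to none of the 15 gene lists used here. Of all 394 genes, 286 belonged to none of the lists, 171 below the sum and 115 above. In 167 of the 254 genes below the sum the dual knockdown had the lowest mean of the 4 conditions (24.7% of all tested genes), whereas in 51 of the 140 above it the dual knockdown had the highest (25.8% of all tested genes). The 3 dual libraries were below all 12 others in 132 of the 254 genes (4.21% of all tested genes), and above all 12 in 12 of the 140 (3.73%). The dual level is part of the departure that selected these genes. Their ranks therefore only describe the calls, and the gap to the shares over all tested genes is no separate evidence. On a linear scale, where changes in normalised counts are added in place of fold changes, all 254 and all 140 kept their direction. This compares signs only, without a test, in the libraries that selected the genes. With a test on the linear scale some calls were lost, as given below for genes and lists.

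The non-targeting controls differed from each other, and the counts depended on which was used. With NT#3 alone as control 1301 genes departed, 702 below and 599 above, and with NT#4 alone 271 did, 206 below and 65 above. Past the threshold with each control separately and in the same direction were 158 of the 394 genes, 123 below the sum and 35 above. Without library 3 of NT#3 1128 genes departed, 583 below and 545 above. Counts by list under these settings, given below, are to be read beside these totals over all 11501 tested genes. Without library 1 or 2 of the CDK4 knockdown 253 and 242 did, without library 3 of the CDK6 knockdown 246, and without library 3 of the dual knockdown 260. Weighting each library by its precision gave 1706 genes, 836 below and 870 above, so that the excess of genes below the sum was not kept under that setting.

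The mitosis genes made the clearest group. Of 62 tested members, 46 lay below the sum and none above (over all tested genes 2.21% lay below and 1.22% above). The median departure was -1.50, against -0.002 over all genes tested. The count was 42 to 50 when any 1 library was left out and 38 to 54 under the other settings, and it was 45 with either non-targeting control alone. In all 62 the dual knockdown had the lowest mean of the 4 conditions (24.7% of all tested genes). In 53 its 3 libraries were below the other 12 (4.21% of all tested genes). These ranks use the dual level that forms the departure, so here and for the lists below they only describe the genes. In bulk RNA, fewer dividing cells and less of a transcript per cell cannot be told apart.

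**Figure D1:**
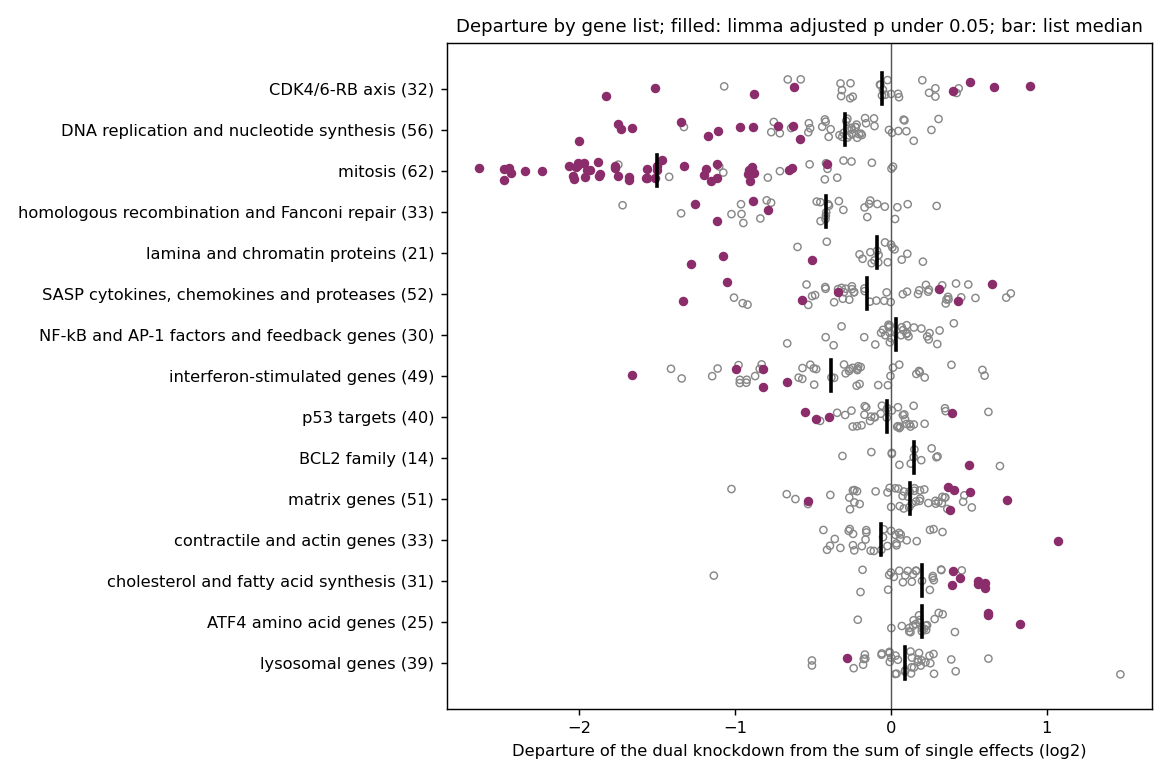
Departure from the sum (x axis, log2 units) for the tested members of each gene list (y axis, number of members in brackets). Each point is a gene, filled where the limma adjusted p was under 0.05, and the bar is the list median; the mitosis list has its median at -1.50 and 46 of 62 filled points, all left of 0.

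MKI67 (ENSG00000148773), which encodes the proliferation antigen Ki-67, had the largest departure of these. It stood at 793, 717 and 459 normalised counts with NT#3 and at 647, 698 and 679 with NT#4. It was 1018, 1076 and 869.6 with CDK4 siRNA and 419, 355 and 469 with CDK6 siRNA. In the dual knockdown it was 86.1, 98.3 and 111.1. The CDK4 libraries were thus the highest of all, and the dual libraries lay far below every other library. The singles added up to 618 normalised counts, and the dual knockdown reached 15.9% of that (departure -2.64, SE 0.22, adjusted p = 3.97e-06).

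The order CDK4 knockdown, controls, CDK6 knockdown and dual knockdown, from high to low, was also that of KIF20A. KIF20A, a kinesin of the central spindle, stood at 310.4 to 368 in the controls, 537 to 620.1 with CDK4 siRNA, 181 to 262 with CDK6 siRNA and 52.4 to 82.8 in the dual knockdown, 17.7% of the expected level (departure -2.48, SE 0.20, adjusted p = 3.97e-06). DLGAP5, which stabilises kinetochore fibres, reached 17.5% of its expected level (departure -2.48, SE 0.23). CENPF, a kinetochore protein, had 23.7% and KIF4A, a chromosome-associated kinesin, 23.9% of the expected level. TOP2A, the topoisomerase that untangles chromosomes, had 27.3%, cyclin A2 (CCNA2) 30.9% and the cytokinesis scaffold ANLN 33.5%. The spindle assembly factor TPX2 and cyclin B1 (CCNB1) each had 45.9%. All 10 of these genes passed the threshold under each of the 29 alternatives.

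Members of the list that did not pass included AURKB, the kinase of the chromosomal passenger complex (departure -1.08, adjusted p = 0.0624), CDC25C (-1.75, adjusted p = 0.0555) and CENPA, the centromeric histone (-1.42, adjusted p = 0.188). Members near 0 were BUB3 (0.005) and CDC25B (0.01).

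Many mitotic promoters carry the cell cycle genes homology region (CHR), the 6-base word TTTGAA through which DREAM and B-Myb-FOXM1 complexes reach them. The 100 bases before the start of transcription are shown for MKI67, ANLN and KIF4A as examples of genes below the sum that hold the word there, with each TTTGAA or its reverse complement in capitals. They come from RefSeq (GRCh38.p14) and read 5′ to 3′ on the strand of the gene, at chr10:128126424-128126523 (minus strand), chr7:36389762-36389861 (plus strand) and chrX:70290004-70290103 (plus strand).
MKI67: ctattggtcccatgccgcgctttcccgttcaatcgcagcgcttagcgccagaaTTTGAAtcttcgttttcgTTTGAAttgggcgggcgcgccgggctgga
ANLN: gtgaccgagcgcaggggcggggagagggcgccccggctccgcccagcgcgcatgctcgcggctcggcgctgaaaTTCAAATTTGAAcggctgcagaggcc
KIF4A: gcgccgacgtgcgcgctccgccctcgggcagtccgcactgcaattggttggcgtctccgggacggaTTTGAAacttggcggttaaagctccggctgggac

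MKI67 and ANLN hold the word 2 times in this stretch, ANLN as a palindrome, and KIF4A holds it 1 time. For KIF20A and RRM2, which lie farther below the sum than ANLN, no match was recorded in the searched window described next. Genes without a promoter entry were not searched. DLGAP5, CENPF and TOP2A have their matches outside the 100 bases. Over the window from 250 bases before to 50 bases after the start, on both strands, TTTGAA was found in 10.5% of the 9341 tested genes with a promoter entry. It was found in 27.6% of the 210 genes below the sum that had an entry and in 6.96% of the 115 above it. Among the mitosis genes it was found in 68.4% of the 38 below the sum and in 65.4% of all 52 with an entry. Outside the mitosis, replication and repair lists it was found in 19.0% of 158 genes below the sum. A match is a description of the sequence and no evidence of binding.

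The departure of the mitosis genes had opposite signs in its arms. With CDK4 siRNA alone 13 of 62 rose and 1 fell, with a median of 0.32 (over all tested genes 6.12% rose and 5.83% fell). With CDK4 siRNA on top of CDK6 siRNA 52 fell and none rose, with a median of -1.13 (over all tested genes 5.57% fell and 4.09% rose). CDK6 siRNA alone lowered 52 of 62 (18.8% of all tested genes fell), with a median of -0.67, and CDK6 siRNA on top of CDK4 siRNA lowered 58 (13% of all tested genes fell), with a median of -2.26. By library, the list's median relative to the controls was 0.25, 0.41 and 0.27 with CDK4 siRNA, -0.57, -0.92 and -0.52 with CDK6 siRNA, and -2.01, -1.83 and -1.93 in the dual knockdown. The control libraries lay between -0.03 and 0.13, and the controls and the 3 knockdowns did not overlap.

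**Figure D2:**
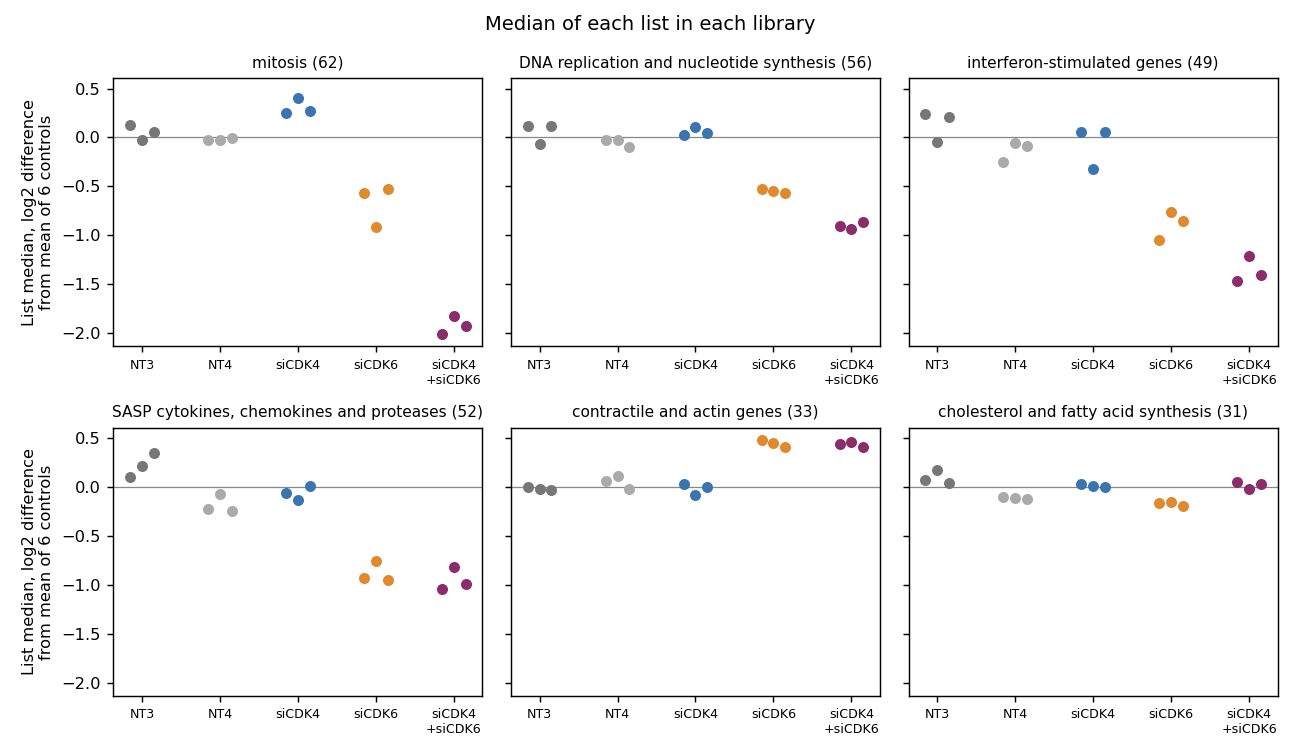
Median of each list in each library, as the log2 difference from the mean of the 6 control libraries (y axis), for 6 lists with their numbers of tested members in brackets; each point is 1 library of NT#3, NT#4, siCDK4, siCDK6 or both siRNAs (x axis). The mitosis medians of the dual knockdown, -2.01 to -1.83, lie below those of the CDK6 knockdown, -0.92 to -0.52, and those of the CDK4 knockdown, 0.25 to 0.41, above all others.

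The arms of this comparison share no library, which allowed the effect of CDK4 siRNA to be set side by side with and without CDK6 siRNA. CDK4 siRNA changed 1374 genes (11.9%) alone and 1111 (9.66%) on top of CDK6 siRNA. Both changes passed in 385 genes, with the same sign in 342, which are 24.9% and 30.8% of the genes changed in each arm, and with opposite signs in 43. Of the 43, 35 rose with CDK4 siRNA alone and fell on top of CDK6 siRNA, among them MKI67, KIF20A, RRM2, NDC80, HMMR, CDC20, CENPF, TTK and CCNB1, all with roles in replication or mitosis, and also the chemokine CXCL12 and the cyclooxygenase PTGS1. These examples were chosen after their values were seen. The other 8 fell alone and rose on top, among them the glycoprotein hormone gene STC2 and the tetraspanin TSPAN13. Across genes, which are not independent replicates, the arms correlated with Pearson r = 0.215 and Spearman rho = 0.214.

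CDK6 siRNA changed 4388 genes (38.2%) alone and 3009 (26.2%) on top of CDK4 siRNA, both passed in 2130, and 2106 of these had the same sign, which are 48.0% and 70.0% of the genes changed in each arm. The arms correlated across genes with r = 0.705 and rho = 0.645. The gap between the CDK6 arms is for each gene the same departure as the gap between the CDK4 arms, so the higher correlation stands beside the larger number of genes that CDK6 siRNA changed and shows no difference in departure. These 4 counts changed with single libraries: without library 3 of NT#3 they were 2448 for CDK4 alone, 2587 for CDK4 on top and 4548 for CDK6 on top, and without library 1 or 2 of the CDK4 knockdown CDK4 alone gave 722 and 642. CDK4 on top gave 700, 732 and 675 without library 1, 2 or 3 of the CDK6 knockdown and 683 without library 3 of the dual knockdown.

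**Figure D3:**
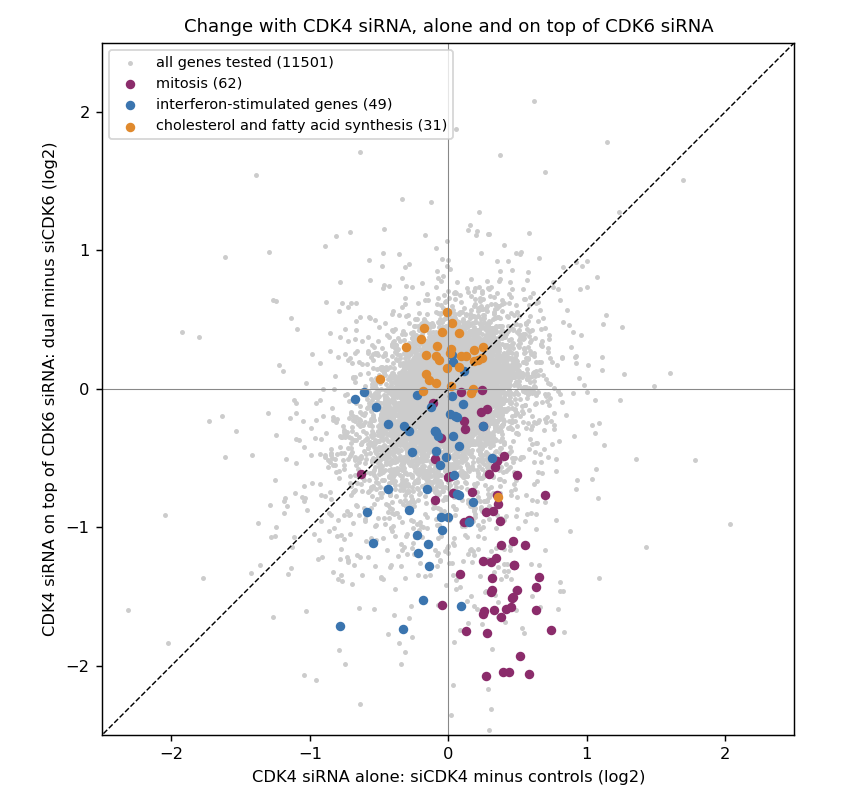
Change with CDK4 siRNA alone (x axis, siCDK4 minus controls, log2) against the change with CDK4 siRNA on top of CDK6 siRNA (y axis, dual knockdown minus siCDK6, log2). Grey points are the 11501 tested genes, of which 5 lie outside the plotted range, coloured points are members of 3 lists, and the dashed diagonal marks equal changes; the mitosis genes have a median of 0.32 on the x axis and -1.13 on the y axis.

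The pathway of the kinases themselves departed in both directions. Of 32 tested members of the CDK4/6-RB list, 4 lay below the sum and 4 above (2.21% and 1.22% of all tested genes). The median was -0.05. Below the sum were the transcription factors FOXM1 and MYBL2 (B-Myb), which drive mitotic genes, the RB relative RBL1 (p107) (-0.88) and the activator E2F1 (-0.62). Above it were CDK4 itself, the repressor E2F4 (0.40) and the adjacent inhibitor genes CDKN2A (0.67) and CDKN2B (0.89). CDK4 is a target of the siRNAs, so its departure cannot be read as a response of the pathway. RBL1 and E2F1 passed narrowly (adjusted p = 0.0342 and 0.0449). The number below was 2 without any 1 of the NT#4 libraries, of libraries 1 and 2 of the CDK4 knockdown, of libraries 1 and 3 of the CDK6 knockdown or of libraries 1 and 3 of the dual knockdown. The number above was 2 without library 2 of the CDK4 knockdown or without library 2 or 3 of the dual knockdown, and 1 without library 3 of the CDK6 knockdown. On a linear scale 1 member lay on each side.

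FOXM1 (ENSG00000111206) had the smallest adjusted p of the named genes. It stood at 448, 477 and 484 normalised counts with NT#3, at 585, 546 and 554 with NT#4, at 564, 549 and 522 with CDK4 siRNA, and at 327, 278 and 363 with CDK6 siRNA. In the dual knockdown it was 100.4, 85.2 and 100.1. CDK4 siRNA alone left it within the range of the controls, with CDK6 siRNA it fell by 0.68, and the dual knockdown reached 27.9% of the expected 340.0 (departure -1.83, SE 0.13, adjusted p = 2.3e-06). MYBL2 reached 34.3% of its expected level (departure -1.51, SE 0.21, adjusted p = 5.31e-04), though this call was lost on a linear scale.

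CDKN2B, which encodes the inhibitor p15, behaved in the opposite way. It stood at 467 to 513 in the controls, at 492, 516 and 426 with CDK4 siRNA, at 134, 157 and 163 with CDK6 siRNA and at 278, 259.9 and 301 in the dual knockdown. With CDK6 siRNA it fell by 1.66 log2 units, CDK4 siRNA alone changed it by -0.01 (SE 0.08, adjusted p = 0.972), and CDK4 siRNA on top of CDK6 siRNA raised it by 0.89. The dual libraries lay between the CDK6 libraries and the controls without overlap, at 186% of the expected level (departure 0.89, SE 0.13, adjusted p = 6.42e-04). That call, too, was lost on a linear scale.

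**Figure D4:**
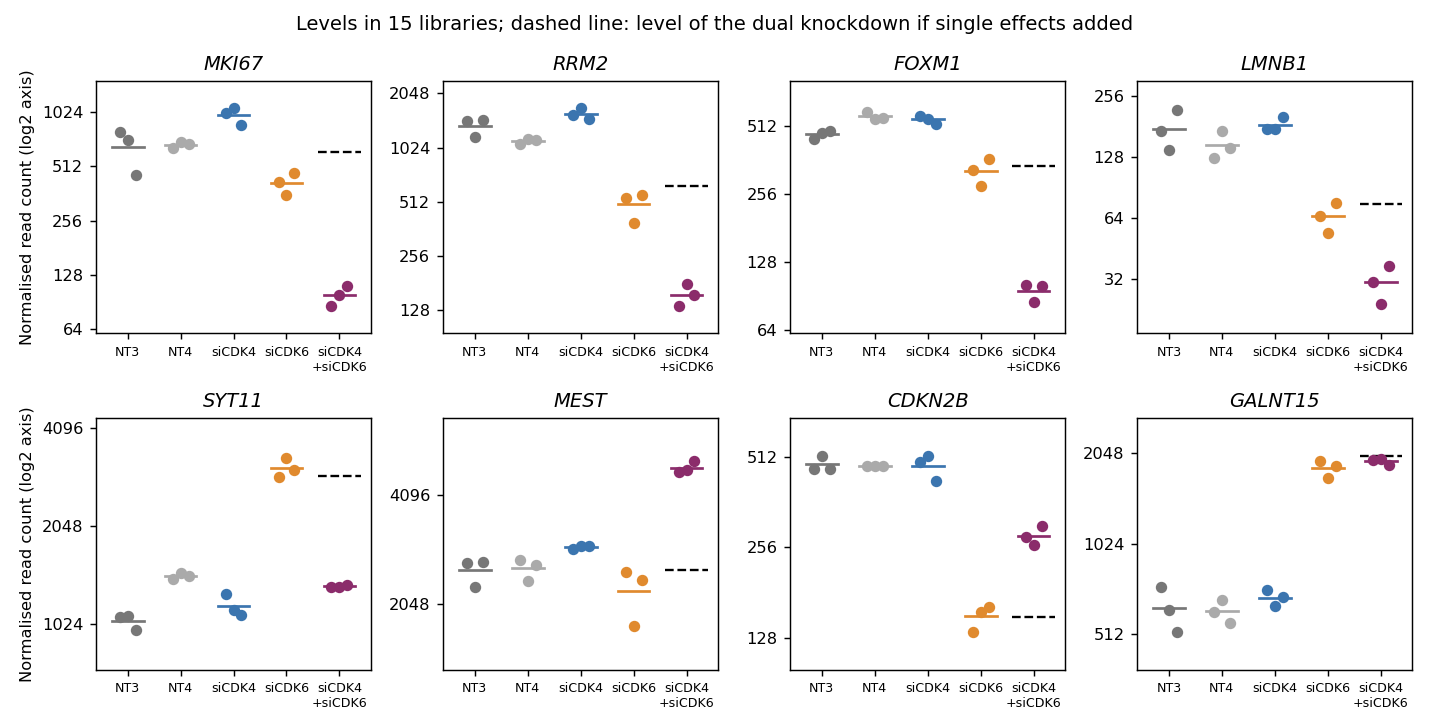
Normalised read counts (y axis, log2 axis) of 8 genes in each of the 15 libraries, by group (x axis); points are libraries, short bars are group means, and the dashed line is the level of the dual knockdown if the fold changes of the singles multiplied. The dual libraries of MKI67, RRM2, FOXM1, LMNB1 and SYT11 lie below the dashed line, those of MEST and CDKN2B above it, and those of GALNT15 at it.

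Genes for DNA replication and nucleotide synthesis also lay below the sum where they departed. Of 56 tested members 12 lay below the sum and none above, with a median of -0.29 (2.21% of all tested genes lay below and 1.22% above). The count was 9 to 16 when 1 library was left out, but 2 on a linear scale. CDK6 siRNA alone already lowered 45 of the 56 (18.8% of all tested genes fell). The dual knockdown lowered 49 against the controls (19.9% of all tested genes fell). In 47 of 56 the dual knockdown had the lowest mean of the 4 conditions (24.7% of all tested genes). This rank is no evidence of a departure, as CDK6 siRNA alone already lowered most members.

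RRM2, the small subunit of ribonucleotide reductase, led the list. It stood at 1449, 1176 and 1451 with NT#3, 1079.5, 1143 and 1126 with NT#4, and 1564, 1693 and 1471 with CDK4 siRNA. It was 541, 390.4 and 556 with CDK6 siRNA and 136, 179 and 155 in the dual knockdown, 24.8% of the expected level (departure -2.0, SE 0.17, adjusted p = 4.89e-06). The dual libraries were again below all 12 others. Thymidine kinase (TK1) reached 29.4% of its expected level (departure -1.75, SE 0.17, adjusted p = 1.42e-05), with 66.6 to 71.1 normalised counts in the dual knockdown, and lost its call on a linear scale. CDC45, part of the replicative helicase, had a departure of -1.73 (SE 0.42, adjusted p = 0.0308), but its dual libraries held only 4.41, 14.2 and 11 normalised counts. The call was lost when any 1 of 8 libraries was left out, on a linear scale and with quantile normalization. Others below the sum included the checkpoint adaptor CLSPN (-1.66), the histone chaperone ASF1B (-1.35), HELLS (-1.18), thymidylate synthase (TYMS, -1.11), the licensing factor CDC6 (-0.97), the helicase subunits MCM7 (-0.72) and MCM6 (-0.63), and RFC2 (-0.58).

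The homologous recombination and Fanconi repair genes had a median departure of -0.42 over 33 tested members. Of these 4 lay below the sum and none above (2.21% and 1.22% of all tested genes). The 4 below the sum were RAD51AP1 (-1.26, SE 0.29, adjusted p = 0.0224), FANCA (-1.12, adjusted p = 0.0472), the helicase BRIP1 (-0.88, adjusted p = 0.0337) and FANCI (-0.79, adjusted p = 0.0128). At an unadjusted p under 0.05, 19 lay below the sum (9.32% of all tested genes). The number past the adjusted threshold was 0 without library 2 of the CDK4 knockdown, 7 and 8 without library 1 or 3 of NT#3, and 2 without library 2 of NT#4, library 1 or 3 of the CDK4 knockdown, library 2 or 3 of the CDK6 knockdown or library 1 or 3 of the dual knockdown. RAD51AP1 stood at 93.8, 95.4 and 114 with CDK4 siRNA, 49.9, 41.0 and 41.2 with CDK6 siRNA and 22.1, 10.9 and 23.0 in the dual knockdown. Its call was lost without library 2 or 3 of the CDK4 knockdown or without library 1 of the CDK6 knockdown. It was also lost on a linear scale and with quantile normalization. FANCA lost its call when any 1 of 11 libraries was left out, and BRIP1 when any 1 of 7 was. Other settings that lost both calls included a linear scale and quantile normalization. With NT#3 alone FANCA did not pass, and with NT#4 alone BRIP1 did not. On a linear scale the list had 1 member below the sum, and with quantile normalization also 1.

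E2F factors bind other words, which were frequent in promoters of the replication list and were not counted over the repair list. RAD51AP1 shows 1 in the 100 bases before its start (RefSeq, GRCh38.p14, chr12:4538790-4538889, plus strand), in capitals as GGCGGGAA, the reverse complement of TTCCCGCC.
RAD51AP1: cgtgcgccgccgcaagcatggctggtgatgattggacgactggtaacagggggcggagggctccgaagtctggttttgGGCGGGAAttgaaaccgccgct

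The words searched were TTTGGCGC, TTTCCCGC and TTCCCGCC on both strands, of which the last 2 can overlap. Any of them was found in 7.16% of all tested promoters, in 51.0% of 49 replication promoters and in 54.5% of the 11 replication genes below the sum. It was found in 15.2% of the 210 genes below the sum and in 6.09% of the 115 above it.

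Among 21 tested lamina and chromatin genes 3 lay below the sum and none above (2.21% and 1.22% of all tested genes). The median was -0.09. Lamin B1 (LMNB1), whose loss is a common marker of senescence, stood at 126 to 217 in the controls, 176, 176 and 202 with CDK4 siRNA, 65.1, 54.0 and 75.7 with CDK6 siRNA, and 30.9, 24.0 and 37.0 in the dual knockdown. That is 40.3% of the expected level (departure -1.28, SE 0.25, adjusted p = 0.00798), and the dual libraries were below all others; the call was lost on a linear scale. The methyltransferase EZH2 reached 46.8% of its expected level (departure -1.08, SE 0.19, adjusted p = 0.00284). The lamin B receptor (LBR) rose by 0.60 with CDK4 siRNA alone and by 0.23 in the dual knockdown (departure -0.51, adjusted p = 0.0463). Its departure was -0.12 with NT#4 alone, and the call was lost when any 1 of 11 libraries was left out. Without library 3 of NT#3 the list had 5 members below the sum.

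A few named genes below the sum had been raised by CDK6 siRNA. SYT11 (ENSG00000132718), a synaptotagmin of vesicle traffic, stood at 985 to 1087 with NT#3 and at 1412 to 1471 with NT#4. It was 1267, 1129.7 and 1094 with CDK4 siRNA, 2904, 3312 and 3035 with CDK6 siRNA, and 1332, 1331 and 1352 in the dual knockdown. CDK6 siRNA raised it by 1.33 log2 units, and on top of this, with CDK4 siRNA, it fell by 1.20, back into the range of the controls, at 46.0% of the expected level (departure -1.12, SE 0.09, adjusted p = 3.97e-06). The call held with NT#3 alone (-1.35) and with NT#4 alone (-0.89).

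The scavenger receptor gene SCARA3 and the ETS factor ETV1 lay below the sum by a similar amount. SCARA3 rose by 0.58 with CDK4 siRNA and by 0.85 with CDK6 siRNA, but by only 0.41 with both (departure -1.02, SE 0.12, adjusted p = 8.47e-05). ETV1 had a departure of -1.12 (SE 0.18, adjusted p = 0.00173). For both genes the controls disagreed, with SCARA3 at 908 to 1191 with NT#3 and 2078 to 2171 with NT#4. The departure of SCARA3 was -1.50 with NT#3 alone and -0.53 with NT#4 alone, and that of ETV1 was -1.78 and -0.47, the last of which did not pass.

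GALNT15 and LMOD1 were raised by CDK6 siRNA too, but their departures did not pass. GALNT15, a glycosyltransferase gene, stood at 521 to 735 in the controls, 1927, 1692 and 1857 with CDK6 siRNA and 1943, 1967 and 1872 in the dual knockdown, so the rise of 1.57 with CDK6 siRNA was present with and without CDK4 siRNA (departure -0.06, 95% interval -0.35 to 0.23, adjusted p = 0.839). LMOD1, an actin nucleator of smooth muscle, rose by 1.92 with CDK6 siRNA and by 1.40 in the dual knockdown (departure -0.36, 95% interval -0.66 to -0.06, adjusted p = 0.185), which passed with NT#3 alone (-0.57) and on a linear scale.

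Among the named genes above the sum, MEST, an imprinted gene of the hydrolase family, had nearly the same departure with either control. It stood at 2293 to 2671 with NT#3, 2378 to 2717 with NT#4, 2909, 2963 and 2965 with CDK4 siRNA, and 2507, 1784 and 2383 with CDK6 siRNA. It rose to 4724, 4780.5 and 5063 in the dual knockdown, above all 12 others. Neither single knockdown changed it past the threshold (0.21, adjusted p = 0.15, and -0.21, adjusted p = 0.0652), and the dual level was 191% of the expected one (departure 0.93, SE 0.13, adjusted p = 6.42e-04). The departure was 0.93 with NT#3 alone and 0.94 with NT#4 alone.

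Other genes above the sum had fallen with CDK6 siRNA and did not differ from the controls past the threshold in the dual knockdown. PSAT1, an enzyme of serine synthesis, stood at 780.4 to 976 in the controls, 648 to 813 with CDK4 siRNA, 579 to 764 with CDK6 siRNA and 859 to 1108 in the dual knockdown (departure 0.83, SE 0.16, adjusted p = 0.00553). TMED9, a cargo receptor between the endoplasmic reticulum and the Golgi, reached 162% of its expected level (departure 0.70, SE 0.12, adjusted p = 0.00265). The collagen chaperone SERPINH1 reached 142% (0.51, SE 0.10, adjusted p = 0.00845), and the matrix glycoprotein THBS2 168% (0.74, SE 0.16, adjusted p = 0.0143). PSAT1, TMED9 and SERPINH1 passed under each of the 29 alternatives, and THBS2 lost its call without library 1 of the dual knockdown.

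For other genes above the sum the control decided the size. CYP1B1, a cytochrome P450, stood at 2908 to 4783 with NT#3 and at 1069.5 to 1205 with NT#4. It was 2018 to 2486 with CDK4 siRNA, 694 to 774 with CDK6 siRNA and 1459 to 1816 in the dual knockdown (departure 1.0, SE 0.18, adjusted p = 0.00405). Its departure was 1.83 with NT#3 alone and 0.18 with NT#4 alone. DIO2, which activates thyroid hormone, gave 1.47 and 0.04, and ANKRD1, a stress-responsive muscle repeat protein, 2.18 and -0.03. NREP (1.20 and 0.41), the tetraspanin TSPAN13 (1.08 and 0.41), the long noncoding RNA CYTOR (1.22 and 0.46) and the keratin KRT18 (1.05 and 0.37) were likewise not past the threshold with NT#4 alone. CYTOR also lost its call without library 1 or 2 of the CDK4 knockdown, library 3 of the CDK6 knockdown or library 1 of the dual knockdown. CYP1B1 and CYTOR lost theirs on a linear scale. KRT18 was the only epithelial marker that departed, and the summed epithelial markers were 1636 to 2718 normalised counts in the controls and 2244 to 2501 in the dual knockdown; their part in the result was not tested.

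Metabolic genes made up a group above the sum. Of 31 tested genes of cholesterol and fatty acid synthesis, 7 lay above it and none below, with a median of 0.20. Over all tested genes 1.22% lay above and 2.21% below. The 7 were the mevalonate pathway enzymes HMGCS1 (0.39), MVK (0.60), MVD (0.56) and FDFT1 (0.40), the later sterol enzymes MSMO1 (0.44) and DHCR7 (0.56), and INSIG1 (0.61), which holds sterol sensing in the endoplasmic reticulum. CDK6 siRNA alone lowered 11 of the 31 (18.8% of all tested genes fell). CDK4 siRNA on top of it raised 10 and lowered none (over all tested genes 4.09% rose and 5.57% fell). CDK4 siRNA alone raised 2 and lowered 1 (over all tested genes 6.12% rose and 5.83% fell). DHCR7 stood at 1314 to 1712 in the controls, 1228 to 1269.7 with CDK4 siRNA, 1093 to 1161 with CDK6 siRNA and 1334 to 1625 in the dual knockdown (departure 0.56, SE 0.10, adjusted p = 0.00525). MVK lost its call when any 1 of 8 libraries was left out. INSIG1 and MVK lost theirs with NT#4 alone, and INSIG1 also on a linear scale.

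The size of the sterol group followed the control, as did the count over all tested genes. With NT#3 alone 13 members lay above the sum and with NT#4 alone 1 (599 and 65 of all 11501 tested genes). The number above was 13 without library 3 of NT#3 (545 of all tested genes) and 3 on a linear scale. It was 3 without library 1 of the CDK4 knockdown or library 1 of the CDK6 knockdown. It was 4 without library 3 of the CDK4 knockdown, library 2 or 3 of the CDK6 knockdown or library 1 or 2 of the dual knockdown. No member lay below the sum in any of these.

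Of 25 tested target genes of ATF4, the factor of the amino acid response, 3 lay above the sum and none below. The median was 0.20 (1.22% of all tested genes lay above and 2.21% below). Besides PSAT1 the members above the sum were the amino acid transporter SLC7A5 (0.62, SE 0.10, adjusted p = 0.00158) and STC2 (0.63, SE 0.10, adjusted p = 0.00163). SLC7A5 stood at 2642 to 3170.4 with NT#3, 1895 to 2099 with NT#4, 2288 to 2393 with CDK4 siRNA, 1564 to 1582 with CDK6 siRNA and 2157 to 2546 in the dual knockdown. With NT#4 alone its departure was 0.34 and that of STC2 was 0.30, neither past the threshold, and 1 member of the list passed. Without library 3 of NT#3 5 did (545 of all tested genes lay above).

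In the secretory programme departures went both ways. Of 52 tested SASP genes 3 lay above the sum and 4 below, with a median of -0.15 (1.22% of all tested genes lay above and 2.21% below). CDK6 siRNA alone lowered 38 of the 52 and the dual knockdown 40 (18.8% and 19.9% of all tested genes fell). The median changes were -0.92 and -0.99. IL6 stood at 1824, 1919 and 2993 with NT#3, 408, 682 and 451 with NT#4, 973, 657 and 973 with CDK4 siRNA, 268, 347 and 209.8 with CDK6 siRNA, and 229.6, 259.9 and 219 in the dual knockdown. Its departure was 0.10 (95% interval -0.52 to 0.73, adjusted p = 0.887), or 1.17 with NT#3 alone, which passed (adjusted p = 0.0251), and -0.96 with NT#4 alone, which did not. CXCL8, the neutrophil chemokine, had -0.36 (95% interval -1.17 to 0.44, adjusted p = 0.655). Departures of any size inside these wide intervals are not excluded here.

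The SASP genes that departed were of several kinds. The chemokine CXCL12 stood at 152, 162 and 134 with CDK4 siRNA, 71.2, 90.4 and 77.6 with CDK6 siRNA and 30.9, 62.2 and 51.1 in the dual knockdown (departure -1.33, SE 0.27, adjusted p = 0.00845), and lost its call with NT#4 alone. The growth factor EREG stood at 386 to 548 in the controls and rose to between 661 and 804 with CDK4 siRNA. It was 225 to 307 with CDK6 siRNA and 181 to 249 in the dual knockdown, where these ranges overlapped (departure -1.05, SE 0.20, adjusted p = 0.00504). MMP1 (-0.57) and FGF7 (-0.34) also lay below the sum, and HBEGF (0.65), TNFRSF11B (0.43) and MMP14 (0.31) above it. HBEGF lost its call when any 1 of 7 libraries was left out, with NT#4 alone and on a linear scale. Above the sum were 10 members with NT#3 alone and 0 with NT#4 alone (599 and 65 of all tested genes). The list medians were 0.23 and -0.33. Leaving out library 2 or 3 of NT#3 gave 7 and 8, and leaving out library 2 of the CDK4 knockdown or library 1 or 3 of the CDK6 knockdown gave 1. Below the sum were 2 without library 1 or 3 of the dual knockdown.

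None of 30 tested NF-kB and AP-1 factors and feedback genes departed by limma (3.43% of all tested genes did). At an unadjusted p under 0.05, 1 lay on each side (9.32% of all tested genes below and 8.68% above). By edgeR none departed, and 1 lay below by DESeq2 and without library 3 of NT#3 or of NT#4. The median was 0.03. CDK6 siRNA alone lowered 23 and the dual knockdown 24 (18.8% and 19.9% of all tested genes fell). The antioxidant enzyme SOD2, a classical NF-kB target, had a departure of -0.01 (95% interval -0.32 to 0.31, adjusted p = 0.986), the NF-kB regulator TNIP1 0.11 (-0.12 to 0.35, adjusted p = 0.615) and JUN 0.10 (-0.10 to 0.30, adjusted p = 0.607).

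Interferon-stimulated genes leaned below the sum, but few passed. Of 49 tested members 5 lay below it and none above, with a median of -0.38 (2.21% of all tested genes lay below and 1.22% above). At an unadjusted p under 0.05, 24 lay below (9.32% of all tested genes). CDK6 siRNA alone lowered 43 of 49 (18.8% of all tested genes fell). CDK4 siRNA lowered 3 alone and 22 on top of CDK6 siRNA (5.83% and 5.57% of all tested genes fell). It raised none in either arm. In 21 of 49 the 3 dual libraries were below all 12 others (4.21% of all tested genes). Such a rank is no evidence of a departure, as CDK6 siRNA alone already lowered most members.

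IFIT2, which binds viral RNA, stood at 701 to 1013 with NT#3, 1242 to 1514 with NT#4, 1433, 1027 and 1252 with CDK4 siRNA, 474, 614 and 673 with CDK6 siRNA, and 364, 316 and 310.3 in the dual knockdown (departure -0.99, SE 0.20, adjusted p = 0.00869). With NT#4 alone and on a linear scale the call was lost. CMPK2 (-1.66, adjusted p = 0.0463) rested on dual libraries of 11, 5.46 and 15 normalised counts. SAMD9 (-0.82), DDX60 (-0.82) and USP18 (-0.66) completed the set. CMPK2 lost its call when any 1 of 11 libraries was left out, and SAMD9 when any 1 of 8 was. IFI44L stood at 436 to 695 in the controls, 55.0, 143 and 162 with CDK6 siRNA and 36.4, 36.0 and 39.0 in the dual knockdown, but library 1 of the CDK6 knockdown was near the dual libraries and the departure of -1.34 did not pass (SE 0.38, 95% interval -2.14 to -0.55, adjusted p = 0.061). It passed without that library, without library 3 of NT#3, by edgeR and by DESeq2.

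Single libraries moved the interferon count widely. It was 17 without library 3 of NT#3 (583 of all tested genes lay below) and 14 without library 1 of the CDK6 knockdown. It was 1 without library 1 of the CDK4 knockdown or library 1 of the dual knockdown. It was 2 or 3 without any 1 of the NT#4 libraries, library 3 of the CDK4 knockdown, library 2 or 3 of the CDK6 knockdown or library 3 of the dual knockdown. On a linear scale it was 0. With NT#3 alone as control 4 members lay below the sum and 2 above, with a median of -0.24 (702 and 599 of all tested genes). With NT#4 alone 5 lay below and none above, with a median of -0.54 (206 and 65 of all tested genes).

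The promoter of IFI44L is shown because most promoters of this list carry the interferon-stimulated response element, searched as GAAA, any 2 bases and GAAA on both strands and given in capitals (RefSeq, GRCh38.p14, chr1:78620348-78620447, plus strand).
IFI44L: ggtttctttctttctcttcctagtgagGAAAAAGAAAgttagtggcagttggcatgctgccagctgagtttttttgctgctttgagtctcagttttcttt

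The element was found in 64.1% of 39 interferon-stimulated promoters, against 2.95% of all tested promoters. It was found in 4.76% of the 210 genes below the sum.

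Of 40 tested p53 targets 3 lay below the sum and 1 above, with a median of -0.02 (2.21% of all tested genes lay below and 1.22% above). RRM2B, the p53-induced subunit of ribonucleotide reductase, rose with CDK4 siRNA alone to 4055, 4210.1 and 3572 from 2176 to 2964 in the controls. It was 2995, 3102 and 3012 with CDK6 siRNA and 2976, 3137 and 3067 in the dual knockdown, so that the rise with CDK4 siRNA was not present on top of CDK6 siRNA (0.01, adjusted p = 0.951; departure -0.55, SE 0.11, adjusted p = 0.00675). The repair factor DDB2 (-0.48) and the receptor EDA2R (-0.40) lay below the sum as well. Without library 1 of the CDK4 knockdown, library 1 of the CDK6 knockdown or library 2 or 3 of the dual knockdown 1 member lay below. DDB2 lost its call in each of these, and EDA2R when any 1 of 9 libraries was left out. EDA2R also lost it with NT#3 alone and on a linear scale.

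In the BCL2 family, which sets the threshold for apoptosis, 1 of 14 tested genes departed (3.43% of all tested genes did). It was the effector BAK1 (0.50, SE 0.10, adjusted p = 0.011), which did not pass with NT#4 alone. The survival genes MCL1 and BCL2L1 had departures of 0.01 (95% interval -0.15 to 0.17, adjusted p = 0.976) and 0.15 (0.01 to 0.29, adjusted p = 0.247).

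Matrix and contractile genes included many that rose with CDK6 siRNA. Of 51 tested matrix genes 5 lay above the sum and 1 below, with a median of 0.12 (1.22% of all tested genes lay above and 2.21% below). Besides THBS2 and SERPINH1 those above were the collagen-modifying enzymes PLOD2 (0.41) and P4HA1 (0.37) and the elastic fibre protein FBLN5 (0.38), and FBLN1 lay below (-0.53, adjusted p = 0.011, lost with NT#4 alone). With NT#3 alone 6 matrix genes lay above the sum and 8 below (599 and 702 of all tested genes). With NT#4 alone 4 lay above and none below (65 and 206 of all tested genes). Above the sum were 16 without library 3 of NT#3 and 3 without library 1 of the dual knockdown. Below it were 2, 4 and 5 without library 1, 2 or 3 of NT#3. Without library 3 of NT#3 545 of all tested genes lay above and 583 below. Of 33 tested contractile and actin genes ANKRD1 alone departed (3.43% of all tested genes did), and the median was -0.06. With NT#3 alone 4 members lay above the sum and 5 below (599 and 702 of all tested genes). With NT#4 alone none lay above and 1 below (65 and 206 of all tested genes). Below the sum were 4 members without library 3 of NT#3, and 1 without library 2 of NT#3 or library 3 of the CDK4 knockdown. Filamin A (FLNA) and non-muscle myosin MYH9 had departures of -0.24 (95% interval -0.68 to 0.20, adjusted p = 0.571) and 0.05 (-0.22 to 0.33, adjusted p = 0.866). CDK6 siRNA raised 23 of the 33 (19.4% of all tested genes rose) and the dual knockdown raised 24 (20.4% rose), with medians of 0.47 and 0.45.

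Of 39 tested lysosomal genes 1 lay below the sum (2.21% of all tested genes did), and the median was 0.09. This was the membrane protein SCARB2 (-0.28, SE 0.07, adjusted p = 0.0492). It did not pass with NT#3 alone, on a linear scale or when any 1 of the 12 libraries other than NT#3 was left out. Below the sum were 2 and 3 members without library 2 or 3 of NT#3. With NT#3 alone 5 members lay above the sum and 2 below (599 and 702 of all tested genes). With NT#4 alone none lay above and 1 below (65 and 206 of all tested genes). The protease CTSB had a departure of 0.03 (95% interval -0.16 to 0.22, adjusted p = 0.899) and the tetraspanin CD63 0.22 (-0.13 to 0.58, adjusted p = 0.506).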

How the data were processed

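Per the submitters' processing notes, the tools named were Trimmomatic 0.38.1, HISAT2 2.2.1, featureCounts 2.0.3, FastQC 0.74, MultiQC and DESeq2 2.11.40.8, with the build GRCh38; their settings, the annotation and the use of strand are not given in the sources used here. The authors deposited 1 table of normalised counts, a signal equal to whole reads divided by a size factor for each library (100% of the values were whole reads within 0.02). Without stated strand use, overlapping and antisense genes cannot be told apart. Genes with a value of 10 or more in at least 3 of the 15 libraries were kept and fitted with limma 3.58.1 (R 4.3.3, trended variance) on log2(value + 1), with 5 group means. The residual degrees of freedom were 10 and the prior ones 6.23. The same fit gave each arm and its 95% intervals. A fold change on this scale understates the change of low genes. Intervals and p-values cover the spread between libraries. The members and gene lists were chosen with earlier results of these data known. Named genes were CDK4, CDK6 and the D cyclins, the 10 largest called departures on each side among genes above the median level with the same sign under each control, up to 3 genes per list, and 10 chosen genes; other list members and examples were named after their values were seen. Column headers carry library numbers, so replicate numbers follow column order and only name libraries. Alternatives were other pseudocounts, filters, scalings, controls, weights and scales, edgeR 4.0.16 and DESeq2 1.42.0 on recovered reads, and leaving out each library. The script was tested on simulated data. Some items are not reported here.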

Additional observations from a re-analysis of the deposited data

Results flagged for a closer look

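The effect of CDK4 siRNA differed with and without CDK6 siRNA in 394 of 11501 tested genes, by limma's test of the difference itself (254 lower and 140 higher on top of CDK6 siRNA). No other result met the criteria for a closer look.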

How the results depend on the processing

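Of the 394 genes departing from the sum, the number was 398 with a pseudocount of 0.1, 393 with 10, 339 with no filter, 367 with a mean of 100 or more, 398 with median centring, 406 with quantile normalization, 292 on a linear scale and 417 by edgeR. It moved further with NT#3 alone as control (1301), all 21 libraries in the fit (736), sample weights (1706) and DESeq2 (670). Requiring a departure over 1 left 0.965% of the tested genes in place of 3.43%. With NT#3 alone CDK4 siRNA alone changed 2378 genes. With sample weights CDK4 siRNA changed 2982 alone and 2928 on top of CDK6 siRNA, and CDK6 siRNA on top of CDK4 siRNA 4775. Leaving out 1 library gave 242 to 1128 departing genes, 642 to 2448 for CDK4 siRNA alone, 675 to 2587 for it on top, 3245 to 5223 for CDK6 siRNA alone and 2220 to 4548 for it on top. The cause of these moves was not tested.

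List medians moved beyond the spread between libraries for mitosis with a pseudocount of 10 (-1.27) and, with NT#3 alone, for SASP (0.23), p53 targets (-0.086) and sterol genes (0.37). ANKRD1 changed sign with NT#4 alone (-0.025, adjusted p = 0.979). Of the 73 named genes 55 passed, 22 of them under every alternative run, 33 lost their call in at least 1, and 5 others gained one. The columns carry no replicate numbers, so the labels pair no libraries. The library numbers in the headers fall into 3 runs with 1 library of each group, and this was noticed after the headers were seen. Deviations of libraries in a run correlated between -0.12 and 0.11, so the runs were not taken as pairs. With a replicate block for these runs 407 genes departed.

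With 3 libraries a group, calls that rest on few reads in the dual knockdown, such as CDC45 and CMPK2, have the widest standard errors of the called genes named here (0.42 and 0.44).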
